A study of Mus musculus with 8 samples.

Results

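Cytosolic ribosomes consist of ribosomal RNA and the proteins of a small (40S) and a large (60S) subunit, and each protein is needed in a fixed ratio to the others. The mRNAs of these genes share a promoter type and begin with a terminal oligopyrimidine (TOP) tract, a run of C and T letters at the first transcribed base through which mTORC1 signalling tunes their translation. Paneth cells are secretory cells at the base of the intestinal crypt that release antimicrobial peptides such as the α-defensins, and several ribosomal proteins fold around a zinc ion. The comparison asked how the mRNAs of these genes differed between Paneth cells of mice on a standard and on a zinc depleted diet.

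The members are the protein-coding genes named Rpsa, Rplp0, Rplp1, Rplp2, or Rpl or Rps followed by a digit, without pseudogenes and without the Rps6k kinases. This rule gave 90 of the 55414 gene identifiers. Of these, 77 are core genes, 31 of the 40S subunit, 43 of the 60S subunit and 3 of its stalk, the arm that recruits elongation factors. Another 12 are paralogs or retrogenes, and Rps19bp1 encodes a protein that binds Rps19 and is no ribosomal protein itself. RNA was sequenced from Paneth cells that flow cytometry had sorted out of the small intestine, and the mice were C57BL/6J. Of these mice, 4 ate standard chow (control) and 4 a zinc depleted chow (zinc deficient), freely, for 7 weeks, and sex and age are not given in the labels. Each library is a pool of sorted cells of many crypts. Counts per gene were compared as CPM, a gene's counts when a library is scaled to 1000000 counts, with either the total of the mouse as the library or, after edgeR's TMM scaling, an adjusted total (normalised CPM).

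Libraries held between 8557690 and 12648005 counts. The 20 highest genes, mostly α-defensins and other secreted products, took between 60.1% and 78.9% of them. Control replicate 1 stood apart. Its 20 highest genes took 60.1%, against at least 68.5% in the other mice, and its TMM factor was 1.57, against 0.719 to 1.16. The 8 Paneth cell markers, all counted in every mouse, summed to 393772 CPM in control replicate 1 and to 451447 to 517637 CPM in the others. The 6 immune markers, of which Cd3e was at 0, summed to 143 CPM in that mouse and to 37.6 to 71.4 CPM elsewhere. The 6 stem and transit amplifying markers, all counted in every mouse, summed to between 1320 and 2127 CPM in the control mice, with control replicate 1 highest, and to between 489 and 1061 CPM in the zinc deficient mice. The 5 enteroendocrine markers, of which 1 was counted in every mouse, summed to between 12.2 and 21.7 CPM in the control mice and between 1.98 and 8.53 CPM in the zinc deficient mice. The 4 tuft cell markers summed to 308 CPM in zinc deficient replicate 3 and to 11.8 to 71.2 CPM elsewhere. The part of these differences in the results on the ribosomal protein genes was not tested. In sorted bulk cells, fewer cells that express a gene and less RNA per cell cannot be told apart.

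As a share of all counts, the 90 genes together differed little between the diets. They took 1.31%, 1.52%, 1.41% and 1.62% in control replicates 1 to 4 and 1.43%, 1.37%, 1.51% and 1.49% in zinc deficient replicates 1 to 4. The ranges overlapped, with the lowest and the highest share both in control mice, and no 95% Wilson interval, which covers counting error only, was wider than 0.0158 percentage points. The means were 1.47% ± 0.132 (SD, n = 4) and 1.45% ± 0.0631 (SD, n = 4), a difference of -0.0161 percentage points that is smaller than either SD. When the 20 highest genes were taken out of the total, the same genes took 3.29%, 4.84%, 5.33% and 6.04% in the control mice and 5.47%, 6.48%, 4.83% and 5.65% in the zinc deficient mice. The mean was then higher in the zinc deficient group by 0.733 percentage points (4.87% ± 1.17 against 5.61% ± 0.681, SD, n = 4 each), again within the spread of the control mice, and control replicate 1 was the lowest.

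On the scale of normalised CPM the sum of the 90 genes was 8362, 13129, 15240 and 17070 in the control mice and 15295, 19066, 13768 and 17674 in the zinc deficient mice. Control replicate 1 lay below all others and the other 7 mice overlapped between the diets. The mouse with the largest TMM factor (control replicate 1, 1.57) had the lowest sum, and the mouse with the smallest (zinc deficient replicate 2, 0.719) had the highest.

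**Figure D1:**
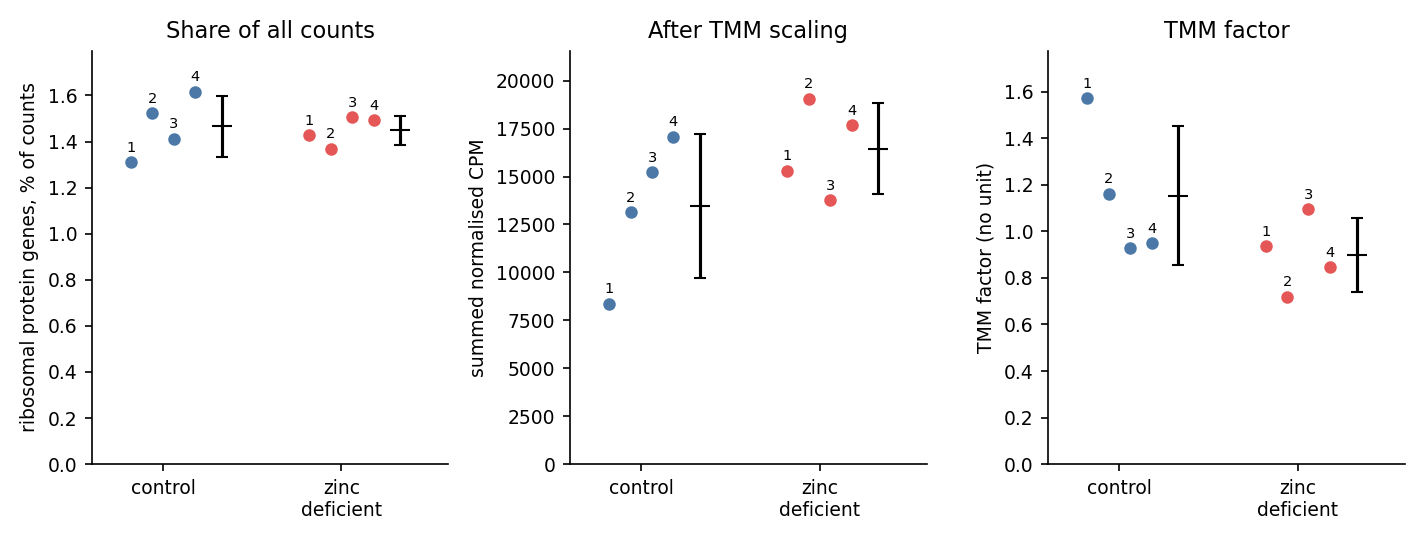
Summed ribosomal protein genes in each mouse as a percentage of all counts (left), as normalised CPM after TMM scaling (middle), and the TMM factor (right), with replicate numbers beside the points and bars for the mean ± SD of 4 mice per diet. The share stays between 1.31% and 1.62%, whereas the normalised sum runs from 8362 in control replicate 1 to 19066 in zinc deficient replicate 2, the mice with the largest and the smallest factor.

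Gene by gene, 81 of the 90 members passed edgeR's expression filter and entered the test on 10911 genes. At an adjusted p under 0.05 (edgeR, quasi-likelihood, Benjamini-Hochberg), 0 of the 81 were called, where 0.403% of all genes tested (44) were, and the smallest adjusted p of a member was 0.283. At an unadjusted p under 0.05, 6 members were higher in zinc deficient mice (7.41% of the members, against 4.43% of all genes tested) and 0 were lower. These 6 became 35 of 81 (43.2%) without control replicate 4, where 5.07% of all genes were higher, and 17 (21.0%) without zinc deficient replicate 3, where 5.42% were. They became 3 without control replicate 2, 2 without control replicate 1, and 1 without zinc deficient replicate 2 or replicate 4, at most 3.70% of the members, where between 2.86% and 4.66% of all genes were higher. DESeq2 on the same genes also called 0 members, where it called 1.34% of all genes, and had 11 members higher at an unadjusted p under 0.05 (13.6%, against 5.14% of all genes). Without the expression filter, edgeR called 2 of 87 members, the paralogs Rpl22l1 and Rps27l (adjusted p 0.0163 and 0.0108), where 1.33% of all genes were called. In that fit, 33 of the 87 were higher at an unadjusted p under 0.05 (37.9%, against 5.01% of all genes). For 0 members did the normalised CPM of all zinc deficient mice lie above those of all control mice, against 2.30% of all genes tested.

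The fold changes of the members nevertheless pointed one way under TMM scaling, and this direction was lost with the total count as the only scaling. Of the 81 members, 80 had a log2 fold change above 0 (zinc deficient over control), where 49.3% of all genes tested did. The members' median was 0.31, with all 75 core genes between 0.025 and 0.52. With size factors of the DESeq2 kind (RLE), or TMM without the α-defensin (Defa) genes, 80 of 81 also lay above 0. The members' medians were then 0.33 and 0.32, and 5674 and 5430 of the 10911 genes tested lay above 0. With the total count as the only scaling, which moved the median of all genes from -0.0052 to -0.37, the members' median was 0.0007 and 41 of 81 lay above 0, where 11% of all genes did. On each of these scales the members' median thus lay above that of all genes. Without control replicate 1, the TMM median of the members fell to 0.13 and 68 of 81 lay above 0, where 50.7% of all genes did. In normalised CPM, control replicate 1 was the lowest of the 8 mice for 80 of the 81 members, including every one of the 75 core genes tested, whereas it was the lowest for 18.8% of all genes tested. Zinc deficient replicate 2 was the highest for 51 of the 81 members and for 14.9% of all genes.

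**Figure D2:**
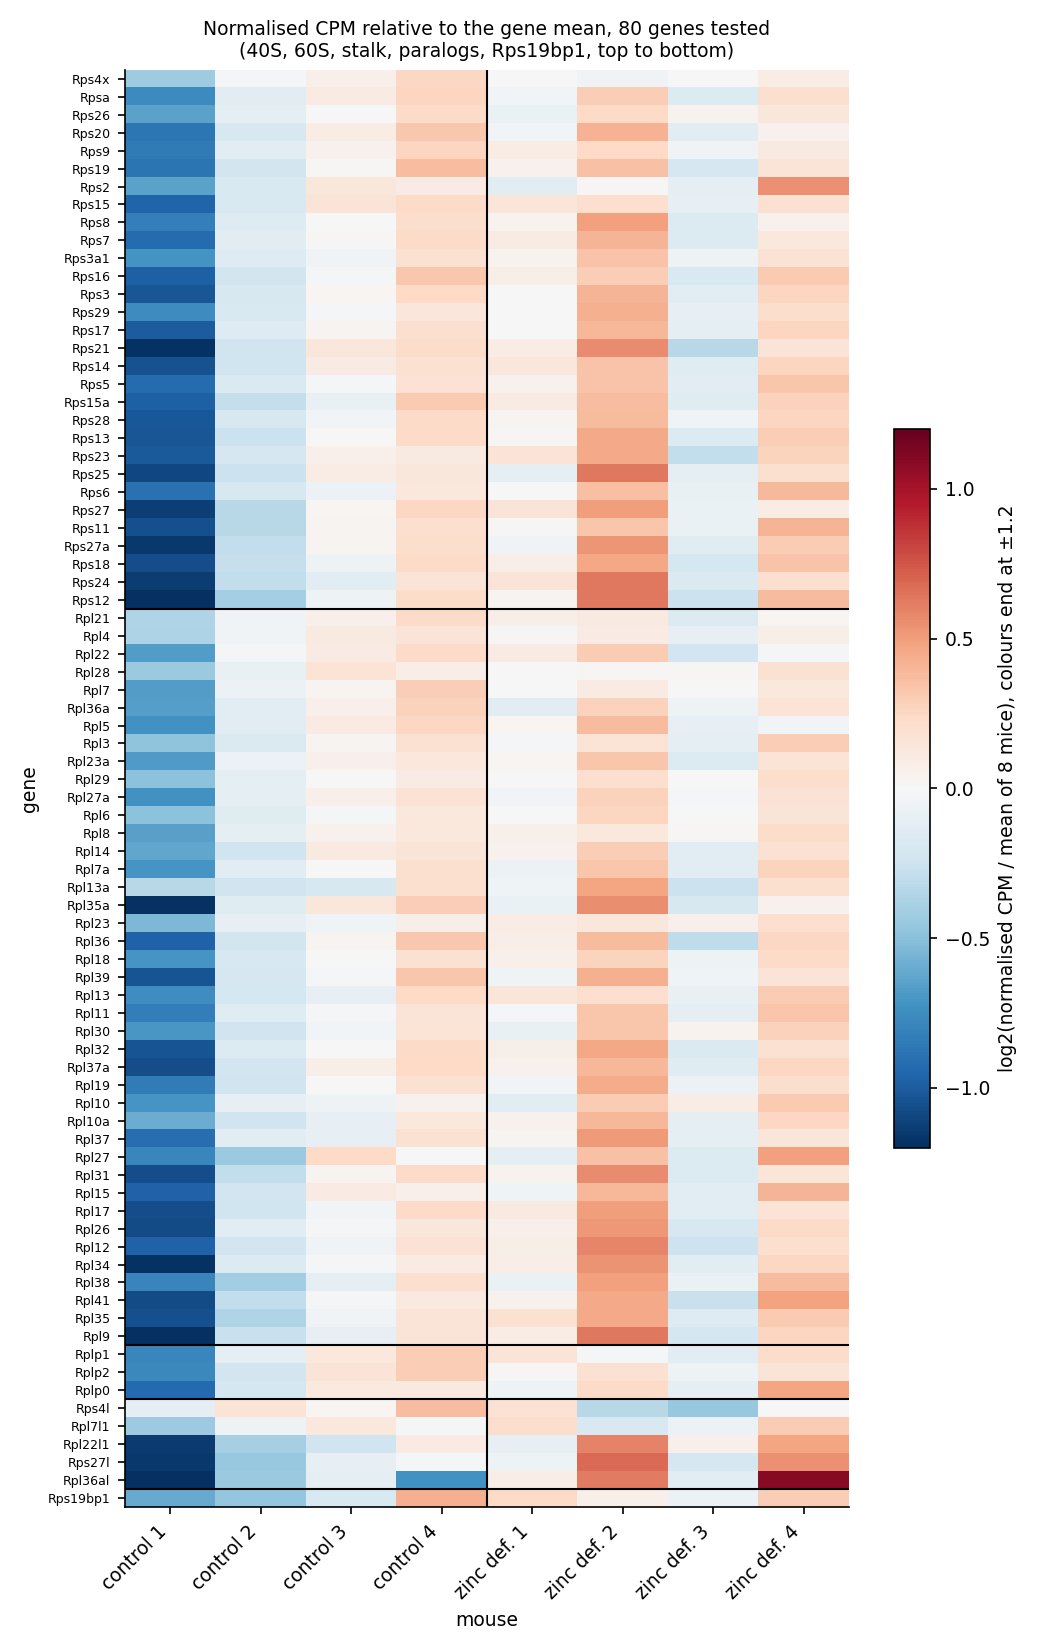
Normalised CPM of 80 of the 81 members tested in each mouse, as log2 of the ratio to the mean of the 8 mice, ordered by class and then by log2 fold change. Over all 81, control replicate 1 is the lowest mouse for 80 and zinc deficient replicate 2 the highest for 51, and no member separates the diets completely with the zinc deficient mice above.

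The medians of both subunits were close. Under TMM scaling the median log2 fold change was 0.32 for the 30 genes of the 40S subunit tested and 0.28 for the 45 of the 60S subunit and stalk, and with the total count as scaling it was 0.022 and -0.032. The counts of 40S genes divided by those of 60S and stalk genes, a ratio that no scaling changes, were 0.714, 0.774, 0.790 and 0.815 in the control mice and 0.805, 0.839, 0.777 and 0.799 in the zinc deficient mice. These ranges overlapped, and control replicate 1 was the lowest. The means were 0.773 ± 0.0429 and 0.805 ± 0.0259 (SD, n = 4 each), a difference within the SD of the control mice.

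**Figure D3:**
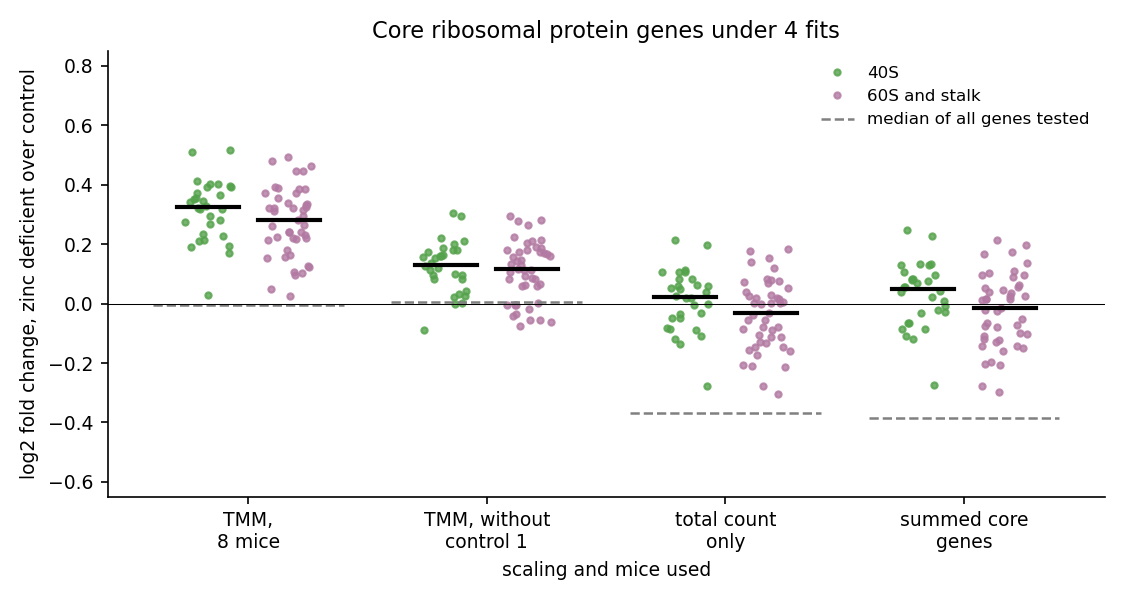
Log2 fold change (zinc deficient over control) of the 75 core genes tested, in green for the 40S subunit and in purple for the 60S subunit and stalk, under 4 fits, with black bars at the median of each subunit and a dashed line at the median of all genes tested. All 75 lie above 0 with TMM scaling of the 8 mice, 63 do without control replicate 1, and 38 do with the total count as the only scaling. The fit labelled summed core genes scales by the sum of all members except Rps19bp1, which sets their middle near 0 by construction.

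The genes at both ends of the range were few. Among the lowest fold changes were those of the retrogene Rps4l, of Rpl21, of Rps4x of the 40S subunit, and of Rpl4 of the 60S subunit. Rps4x had 173, 229, 243 and 276 normalised CPM in the control mice and 233, 226, 233 and 248 in the zinc deficient mice, so the zinc deficient values lay inside the control range (log2 fold change 0.030 ± 0.164 SE, edgeR's adjusted p 0.972). Rpl21 had 111, 137, 147 and 167 against 149, 152, 127 and 144, with the same nesting (0.025 ± 0.154, adjusted p 0.974). Rpl4 was at 0.048. With the total count as scaling Rps4x, Rpl21 and Rpl4 turned to -0.28, -0.30 and -0.28, and without control replicate 1 all 3 were below 0 as well (-0.088, -0.076 and -0.055).

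Among the core genes, the highest fold changes were those of Rps12 and Rps24, both of the 40S subunit. Rps12 had 172, 314, 399 and 482 normalised CPM in the control mice and 425, 644, 346 and 538 in the zinc deficient mice (log2 fold change 0.52 ± 0.272 SE, edgeR's adjusted p 0.537). Rps24 had 162, 291, 326 and 397 against 396, 550, 315 and 410 (0.51 ± 0.237, adjusted p 0.465). In both genes the control values overlapped with the zinc deficient ones, and zinc deficient replicate 2 was the highest mouse. Without control replicate 1 they were at 0.29 and 0.30, and with the total count as scaling at 0.22 and 0.20. Rps24, Rpl35 and Rpl38 were the core genes with an unadjusted p under 0.05 (0.0463, 0.0397 and 0.0340).

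The start sites of some of these genes hold letters of a TOP tract. From 20 bases before to 20 bases after the start of transcription annotated by RefSeq on GRCm38.p6, on the strand of the gene, the windows below show CTTTC (a short stretch of such a tract) and CCGGAAG (the letters bound by ETS family factors) in capitals where they occur. Rps27, Rpl35 and Rpl38 were chosen from the 16 core genes that hold CTTTC within 15 bases of the start. The choice of Rpl35 and Rpl38 came after their values were seen. Rps6 and Rps18 are core genes whose windows hold neither motif. In both, the letters from the annotated start on still begin with a run of C and T alone. A window without CTTTC can thus hold letters of a TOP tract. Rps27l and Rpl22l1 are the paralogs with the highest fold changes after Rpl36al, which had few counts. Rps27l has another annotated start, with the window chr9:66946393-66946432, which holds neither motif and is not shown.
Rps27 (chr3:90213629-90213668, minus strand): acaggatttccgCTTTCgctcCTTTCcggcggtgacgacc
Rpl35 (chr2:39005112-39005151, minus strand): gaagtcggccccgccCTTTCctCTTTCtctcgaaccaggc
Rpl38 (chr11:114668560-114668599, plus strand): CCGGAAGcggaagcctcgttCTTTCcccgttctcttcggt
Rps6 (chr4:86857348-86857387, minus strand): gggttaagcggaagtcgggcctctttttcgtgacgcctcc
Rps18 (chr17:33955646-33955685, minus strand): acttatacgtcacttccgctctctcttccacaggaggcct
Rps27l (chr9:66946066-66946105, plus strand): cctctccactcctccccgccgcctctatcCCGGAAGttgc
Rpl22l1 (chr3:28805488-28805527, plus strand): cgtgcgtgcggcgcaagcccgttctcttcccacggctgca

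RefSeq promoters were found for 57 of the 77 core genes (67 promoters, some genes having several). CTTTC on the transcribed strand within 15 bases of the start was in 23.9% of these promoters and in 4.05% of the 32851 promoters of all genes. CTCTTTC, which contains CTTTC, within 50 bases of the start on the same strand was in 20.9% and 1.37%. CCGGAAG on either strand, from 250 bases before to 50 bases after the start, was in 37.3% and 8.86%, and AAGATGGC, the letters of a YY1 site, in 10.4% and 2.75%. A match describes these letters only.

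Paralog pairs were compared within each mouse, since the ratio of 2 genes does not depend on the scaling. Rpl22l1 (chromosome 3, 28859585 to 28861573 on GRCm39, plus strand) encodes a close relative of Rpl22, a 60S protein without which mice are viable. Rpl22l1 had 13.1, 22.0, 24.6 and 30.9 normalised CPM in the control mice and 26.97, 43.6, 30.2 and 40.1 in the zinc deficient mice, which overlap (log2 fold change 0.65 ± 0.226 SE, edgeR's adjusted p 0.283). It took 18.9%, 19.9%, 20.5% and 22.8% of the counts of the pair in the control mice and 22.1%, 28.3%, 28.4% and 31.4% in the zinc deficient mice. Zinc deficient replicates 2, 3 and 4 were above all control mice, and replicate 1 was below control replicate 4. The mean log2 ratio of Rpl22l1 to Rpl22 was higher by 0.55 in the zinc deficient mice (-1.95 ± 0.145 in control and -1.40 ± 0.293 in zinc deficient mice, SD, n = 4 each), with p = 0.0571 in a two-sided, exact permutation test and 0.171 after adjustment over the 4 pairs tested. The smallest p this design allows is 0.0286.

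Rps27l (chromosome 9, 66853340 to 66856808, plus strand), a target of p53, is the paralog of Rps27 (chromosome 3, 90119819 to 90120977, minus strand), and both encode 40S proteins with a zinc finger. Rps27l had 54.3, 88.4, 113 and 119.7 normalised CPM in the control mice and 116, 193, 105 and 177 in the zinc deficient mice (log2 fold change 0.66 ± 0.249 SE, edgeR's adjusted p 0.348). Zinc deficient replicates 2 and 4 stood above all control mice and replicates 1 and 3 did not. Rps27l took 39.5%, 37.9%, 38.1% and 35.6% of the counts of the pair in the control mice and 36.4%, 42.9%, 38.0% and 47.8% in the zinc deficient mice, and the log2 ratio differed by 0.21 (exact permutation p = 0.286, adjusted 0.381). The coding sequences of the pair are shown because reads that fall inside them are told apart by their differing bases. They are 252 bases each, with 60 differing bases (capitals) and 76.2% identity, from GENCODE M39 on GRCm39.
Rps27: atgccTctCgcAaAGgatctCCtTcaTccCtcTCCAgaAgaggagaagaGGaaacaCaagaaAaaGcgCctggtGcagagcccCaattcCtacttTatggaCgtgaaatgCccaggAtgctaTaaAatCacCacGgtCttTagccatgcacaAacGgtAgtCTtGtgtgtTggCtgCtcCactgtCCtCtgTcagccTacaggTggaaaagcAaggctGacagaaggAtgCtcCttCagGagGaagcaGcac
Rps27l: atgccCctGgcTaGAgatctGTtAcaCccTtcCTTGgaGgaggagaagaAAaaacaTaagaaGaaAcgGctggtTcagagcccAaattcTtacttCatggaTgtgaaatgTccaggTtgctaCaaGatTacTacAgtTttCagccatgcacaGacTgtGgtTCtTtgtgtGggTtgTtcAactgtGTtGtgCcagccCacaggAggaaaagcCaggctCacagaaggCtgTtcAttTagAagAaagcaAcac

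The other pairs differed less or in the other direction. Rpl7l1, a relative of the 60S protein Rpl7, took 13.4%, 11.7%, 12.3% and 9.53% of the counts of its pair in the control mice and 13.3%, 9.76%, 11.1% and 12.9% in the zinc deficient mice, and the log2 ratio differed by 0.0027 (exact permutation p = 1, adjusted 1). Rps4l took 2.41%, 2.20%, 1.88% and 2.10% in the control mice and 2.18%, 1.595%, 1.42% and 1.81% in the zinc deficient mice. The zinc deficient mean was lower, with replicates 2, 3 and 4 below all control mice (log2 ratio -0.31, exact permutation p = 0.0857, adjusted 0.171, from 29 to 79 counts of Rps4l per mouse). Rpl36al took 0.215%, 1.24%, 1.36% and 0.769% of the counts of its pair with Rpl36a in the control mice and 1.76%, 1.94%, 1.45% and 2.87% in the zinc deficient mice, so the diets did not overlap (0.896% ± 0.521 against 2.01% ± 0.614, SD, n = 4 each). With 2 to 28 counts of Rpl36al per mouse, the pair was below the minimum of 10 counts and was not tested. On the same strand, 15.2% of the canonical transcript of Rpl36al lies inside exons of another gene, Gm49383, and how shared reads were counted is not given. The normalised CPM of Rpl36al, 0.108, 0.902, 1.135 and 0.741 against 1.295, 1.89, 1.117 and 2.62, gave a log2 fold change of 1.35 ± 0.574 SE (edgeR's adjusted p 0.414). Rpl39l, Rpl3l and Rpl10l were at 0 counts in all 8 mice, which allows up to 0.351 CPM in the smallest library. Known for expression in testis (Rpl39l and Rpl10l) and striated muscle (Rpl3l), they mark cells that a Paneth cell sort should lack. Rps27rt, Rps23rg1, Rpl27rt and Rpl35rt, all retrogenes, had at most 10 counts in a mouse.

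**Figure D4:**
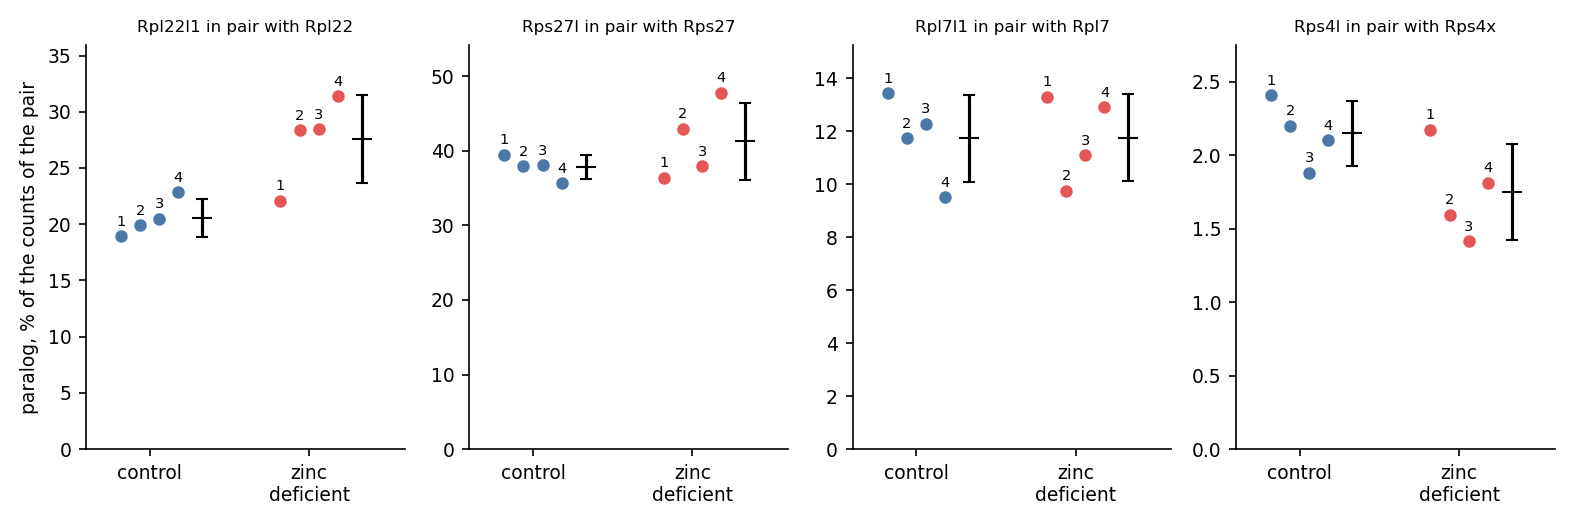
Share of the counts of a pair taken by the paralog in each mouse, in percent, for the 4 pairs tested, with replicate numbers beside the points and bars for the mean ± SD of 4 mice per diet. For Rpl22l1, 3 of the 4 zinc deficient mice (28.3% to 31.4%) lie above all control mice (18.9% to 22.8%), and in all 4 pairs the diets overlap.

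Some ribosomal proteins carry pairs of cysteines (C-x-x-C) of the kind that hold a zinc ion. By translation of the coding sequences, 8 members hold at least 2 such pairs: Rps26, Rps27, Rps27l, Rps29, Rpl34, Rpl37, Rpl37a and the retrogene Rps27rt, of which 7 were tested. Of these, 0 were called by edgeR or DESeq2, and 1 had an unadjusted p under 0.05 in either tool. Their median log2 fold change was 0.36, beside 0.31 for all 81 members, and 0.040 with the total count as scaling, where it was 0.0007 for all members. Rps29 had 118, 174, 196 and 218 normalised CPM in the control mice and 198, 267, 185 and 229 in the zinc deficient mice (0.32 ± 0.189 SE, edgeR's adjusted p 0.600). Rps26 had 92.2, 134, 144 and 168 against 136, 170.1, 148 and 158 (0.19 ± 0.173, adjusted p 0.765). Each overlapped between the diets, and control replicate 1 was the lowest in both. Rpl34 was at 0.44 ± 0.230 SE, Rpl37 at 0.36 ± 0.201 and Rpl37a at 0.32 ± 0.223, and with the total count as scaling at 0.14, 0.040 and 0.030.

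Levels of different genes were compared per length, as TPM from the summed exon length of each gene. Over the 75 core genes with at least 10 counts in every mouse the median was 45.3 TPM, the 10th percentile 17.98 and the 90th 150.3 TPM, an 8.36-fold range, and the median coefficient of variation over the 8 mice was 10.9%. Rplp1, a stalk protein gene, was the highest with 384 ± 60.6 TPM (SD, n = 8), followed by Rps29 (201 ± 17.7), Rpl8 (200.4 ± 30.3), Rplp0 (198 ± 24.2) and Rpl41 (165 ± 15.7). Rplp1 stood apart from the next, and Rps29, Rpl8 and Rplp0 did not differ beyond their spread. This order depends on the length used. By coding length of the canonical transcript the range narrowed to 3.72-fold, Rpl41, whose protein is the shortest of the ribosome, was first, ahead of Rps12 and then Rplp1. Rps28 was among the lowest core genes by summed exon length (9.80 ± 0.952 TPM) but 34th of 75 by coding length, as the annotation gives it 6021 bases of exons. Rps15a followed with 13.1 ± 1.34 TPM by summed exon length. The Spearman correlation of both scales across the 75 genes was 0.675.

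Of the core genes, 3 were near or far below the rest in counts. Rpl24 had 0 to 3 counts per mouse (0.0568 ± 0.0963 CPM, SD, n = 8), Rps10 had 1 to 14 (0.543 ± 0.436 CPM) and Rpl13a 45 to 95 (6.39 ± 0.837 CPM). The other 74 core genes had at least 292 counts in every mouse and a median of 164 CPM. These 3 genes are the core genes whose canonical transcript lies for more than 50% of its length inside exons of another gene on the same strand. The share was 71.5% for Rpl24 (overlapped by the lncRNA gene Gm28037), 53.6% for Rps10 (by the protein-coding Gm49804) and 59.3% for Rpl13a (by the protein-coding Gm45713 and the miRNA gene Mir5121). Each of the overlapping genes had 0 counts in all 8 mice. Of the other 74 core genes, 2 had any such overlap, of at most 10.2% (Rpl32 and Rpl19). How reads shared by overlapping genes were counted is not given in the sources used here, so the low counts of Rpl24, Rps10 and Rpl13a cannot be read as low expression.

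**Figure D5:**
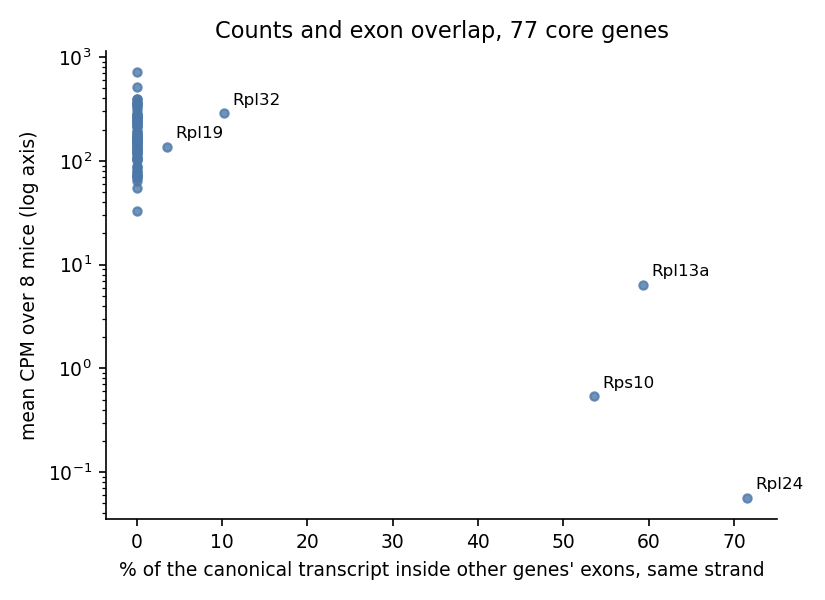
Mean CPM over 8 mice (log axis) of the 77 core genes against the percentage of the canonical transcript that lies inside exons of other genes on the same strand. The 3 genes with over 50% overlap have at most 6.39 CPM, and the other 74 have at least 33.02.

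The share of sequence without an exact copy elsewhere varied widely among the core genes. Of all windows of 70 bases of a canonical transcript, the median core gene had 50.3% that occur nowhere else in the genome or in other genes' transcripts, 8 core genes had under 10%, and 39 had over 50%. Across the 77 core genes, Spearman's rho with TPM was 0.019, a description over genes that share their libraries. Of the 317 ribosomal protein pseudogenes listed, 140 had a count in any mouse, 15 in every mouse, and together they took between 0.00146% and 0.00238% of the counts. The highest was Rpl14-ps1 with 3.00 ± 0.767 CPM (SD, n = 8).

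The genes around the ribosome were described by lists written with earlier results of these data known. Over all 6 lists, edgeR and DESeq2 called 0 of the 175 genes tested, and at an unadjusted p under 0.05 edgeR had 10 higher and 7 lower in zinc deficient mice (DESeq2 12 and 5). In edgeR these are 5.71% and 4.00% of the list genes, where 4.43% and 6.04% of all genes tested were higher and lower, so the counts below are of direction under TMM scaling. Of other ribosomal protein genes, Fau and Rack1 were above 0 (log2 fold change 0.34 and 0.27, and 0.051 and -0.037 with the total count as scaling). Of the 20 translation factors and other TOP mRNAs, 15 lay above 0, with a median of 0.15 (3 of 20 and -0.18 with the total count as scaling). The highest was Tpt1, a classic TOP mRNA, at 0.40 ± 0.243 SE, with Eif3m at 0.38 and Btf3 at 0.37, and the lowest were Hnrnpa1 (-0.38), Eif4b (-0.23) and Npm1 (-0.21). Of the 40 ribosome assembly genes tested, 24 lay above 0, with a median of 0.089 (5 of 40 and -0.27 with the total count as scaling). Nip7 (0.73), Nop10 (0.57) and Rrp9 (0.50) were highest, and Dkc1 (-0.55), Nob1 (-0.42) and Ncl, the gene of nucleolin, (-0.41) lowest. Of the 9 snoRNA host genes 4 lay above 0 (median -0.078, and 1 of 9 with the total count as scaling), with Snhg6 (0.52), Snhg3 (0.25) and Epb41l4aos (0.12) highest and Snhg5 (-0.87), Snhg8 (-0.59) and Snhg12 (-0.57) lowest.

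The list of 27 regulators holds components of mTORC1 signalling and also genes that do not control ribosome production, such as Pelo. Of these 27 genes, 16 lay above 0 (median 0.019, and 1 of 27 with the total count as scaling). Pelo (0.33), Eif4ebp1 (0.31) and Rheb (0.28) were highest, and Mycn, a MYC family factor, was lowest at -1.29 ± 0.406 SE (adjusted p 0.220), followed by Trp53 (-0.43) and Rps6kb2 (-0.39). Of 76 mitochondrial ribosomal protein genes tested, 60 lay above 0 (median 0.18), and with the total count as scaling 19 did (median -0.15). Mrps33 (0.88), Mrpl21 (0.69) and Mrps36 (0.58) were highest and Mrpl49 (-0.44), Mrps27 (-0.35) and Mrpl47 (-0.30) lowest. The medians of the lists of translation factors and mitochondrial ribosomal proteins fell to 0.019 and 0.036 without control replicate 1.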

How the data were processed

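Sorted Paneth cells of 8 mice, 4 per diet, were sequenced with 1 library each (Illumina TruSeq stranded mRNA kit). The table the authors deposited holds raw counts for each Ensembl identifier, not normalised. The submitters' processing notes name FastQC 0.12.0, STAR 2.7.0a, DESeq2 and mm39. The counting program, its strand setting and its handling of reads with several or overlapping targets are not given in the sources used. The replicates are separate mice.

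Genes were named with GENCODE M39 on GRCm39, where 54749 of 55414 identifiers were found. CPM used the total of each mouse, and TPM used summed exon lengths. The test between diets was that of edgeR 4.0.16 under R 4.3.3 (TMM, expression filter, robust quasi-likelihood test, two-sided, Benjamini-Hochberg adjustment over 10911 genes, threshold 0.05). DESeq2 1.42.0 was an alternative. Paralog ratios were tested over all 70 assignments of mice to diets, where both genes had at least 10 counts in every mouse. Shares carry Wilson intervals at 95%, for counting error only. Python 3.11.15 with scipy 1.17.1, pandas 2.3.3, numpy 2.4.6, numba 0.67.0 and matplotlib 3.10.9 was used. On simulated counts of the 10911 genes, the edgeR step called 67.0% of genes changed 2-fold and 91.7% of those changed 4-fold, with 3.59% of 167 calls wrong. Smaller changes, such as the members' median log2 fold change of 0.31, were not simulated, so these rates do not apply to them.

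The members and lists were chosen with earlier results of these data known. Genes named are the members called, the 5 highest and 5 lowest members by fold change, the 5 highest and 5 lowest core genes by TPM, all paralog pairs, members with at least 2 C-x-x-C pairs and, of the other lists, the 3 highest and 3 lowest genes. Single values of some genes are not reported here, although the genes stay in the sums, counts and tests. Rpl35 and Rpl38 were named after their values were seen. Alternatives were other scalings, no filter, other tests, the replicate number as a block, other denominators and lengths, and each mouse left out in turn.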

Additional observations from a re-analysis of the deposited data

How the results depend on the processing

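In all alternatives but 1 no ribosomal protein gene was called, and without the expression filter 2 were. The number of all genes called was 44. The number was 11 with the total count as scaling and 1 with the summed members except Rps19bp1 as scaling. It was 251 without the filter, 146 with DESeq2 and 25 without the robust option. With 1 mouse fewer it was between 8 (control replicate 2 or 4 left out) and 36. The median log2 fold change of the members was 0.31 and ran from 0.13 without control replicate 1 to 0.45 without control replicate 4. It was 0.0007 with the total count as scaling, and 0.016 with the summed members except Rps19bp1, which sets it near 0 by construction. Scaled by this sum of members, Rpl21, Rpl4 and Rps4x were at -0.30, -0.28 and -0.28. With the total count they were at -0.30, -0.28 and -0.28, and with 1 mouse left out between -0.076 and 0.12, -0.055 and 0.11, and -0.088 and 0.13, each lowest without control replicate 1. Rpl21 was at -0.0047 without zinc deficient replicate 2. The difference in the summed share was 0.733 percentage points without the 20 highest genes and 0.0915 without the Defa genes. The log2 ratio of Rpl7l1 to Rpl7 was between -0.11 and 0.10 with 1 mouse left out, and that of Rpl22l1 to Rpl22 between 0.46 and 0.69. The range of levels was 4.76-fold without a length, 3.72-fold by coding length and 8.10-fold to 8.53-fold with 1 mouse left out. The cause of these changes was not tested. The labels number the replicates without stating a pairing of mice across diets. Correlations of same-numbered mice were 0.0254 to 0.0900, and 3 of 4 control mice were closest to their own number. These values do not settle whether the mice were paired. With the replicate block the median of the members was 0.34 with 0 called and 29 higher at an unadjusted p under 0.05 (35.8%, against 5.33% of all genes), and 53 genes were called in all. The block gave p = 0.125 for Rpl22l1 over Rpl22 in an exact sign-flip test, the smallest that 4 pairs allow. Values of members with under 30 counts in every mouse, such as Rpl36al, rest on few reads. For Rpl24, Rps10 and Rpl36al, exons of other genes also overlap on the same strand.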
